A study of Mus musculus with 4 samples.

Results

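Cohesin, its loaders and CTCF shape the folding of interphase chromosomes. Cohesin is a ring of a pair of SMC ATPases and a kleisin that extrudes DNA loops and also holds sister chromatids together. NIPBL with MAU2 drives loading and loop growth, PDS5 proteins regulate release and acetylation of the ring, and the zinc finger protein CTCF stops growing loops at its binding sites. Dividing cells need this machinery, and loss of CTCF in mouse embryonic stem cells has been reported to increase cells that resemble the 2-cell embryo. The 10 genes described here (Smc1a, Smc3, Rad21, Stag1, Stag2, Nipbl, Mau2, Pds5a, Pds5b and Ctcf) were taken by name from 20380 genes in a pooled knockout screen. All 10 were found, with 58 of the 116691 guides against genes.

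The screen asked which knockouts switch on MERVL, an endogenous retrovirus of the 2-cell embryo. Its cells were E14, an established mouse embryonic stem cell line, grown in serum with leukemia inhibitory factor. They carried a tdTomato reporter of MERVL, and the labels give the genotype as MERVL-tdTomato and the treatment as none. The 2 libraries of MERVL-positive cells came from a sort at day 5 on tdTomato, and the 2 libraries of total cells are the group they were set against. Both groups carried the CRISPR-Cas9 library in the lentiCRISPRv2 backbone, so total cells were edited too. In both, transduction took 24 h with polybrene at 4 ug/mL. Selection was for 48 h in puromycin at 2 ug/mL, a step that the treatment label leaves out. Because the titles speak of sequencing repeats and of no separate cultures, spread between cultures may not be covered by the p-values given below. These are taken to rank a gene's guides among all guides. On average over the library, 3.84 cells were sorted per guide, or about 23.0 for a gene with 6 guides.

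The authors' deposited table compares the groups once per gene. It holds no value per library, so depth and the spread between libraries are unknown, and guide sequences and cut sites were not used here. Each gene has a log2 fold change, p-values with false discovery rates (FDR) for enrichment and for depletion, and the number of guides past a loose threshold in each direction, called up and down here. Single-guide entries show where the threshold lies, at 37.4% of the ranking of all guides for up and at 37.9% for down, so being past it is weak evidence of change. A positive value is taken as more guides in MERVL-positive cells. That direction is probable rather than certain. It rests on the study's title, in which loss of Ints7 activates MERVL. It also rests on the enrichment rank of 157 that the authors' deposited table gives Ints7, at an FDR of 0.931. Under the opposite direction all signs below turn.

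Knockouts of this machinery gave no call in the sort. In MAGeCK no member passed an FDR of 0.05 in either direction. The lowest FDR that the authors' deposited table gives a member was 0.934 for enrichment (Stag1) and 0.886 for depletion (Rad21), and of all genes 0.0% passed for enrichment and 0.00491% for depletion. At an unadjusted p under 0.05, the authors' deposited table has 3 members for enrichment (Stag1, Rad21 and Smc3), against 5.02% of all genes. It has 1 member for depletion (Rad21), against 5.07% of all genes. The 3 members with low enrichment p-values have gene log2 fold changes below 0, and 3 of 6 guides of Stag1, 2 of 6 of Rad21 and 1 of 6 of Smc3 were up.

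Over the 10 genes, the authors' deposited table gives a median log2 fold change of -0.39, against -0.021 over all genes. Of the members, 8 lay below 0, against 52.0% of all genes. The members were chosen with earlier results known, so these figures describe the list and are not a test. Of the 58 guides, 27 were down, or 46.6% (exact 95% interval 33.3 to 60.1), against 38.0% over all genes. Another 18 were up, or 31.0% (exact 95% interval 19.5 to 44.5), against 37.4% over all genes. Both intervals hold the share of all genes, and they cover counting error only, with guides counted as independent. Guides against the same gene are not independent, so the intervals describe the counts and are not a test of the list. In 6 members more guides were down than up, in 2 more were up than down, and in 2 the numbers were equal, against 41.5%, 40.2% and 18.3% of all genes.

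As a scale for single genes, 890 olfactory receptor genes with 6 guides were used, since these receptors are usually silent in embryonic stem cells. Across these genes the deposited log2 fold changes had a standard deviation of 0.44, and the middle 95% ran from -0.96 to 0.79. The 8 members with 6 guides lay inside that range. For 197 receptor genes with 5 guides the standard deviation was 0.55 and the range -1.05 to 0.96, which held both members with 5 guides, Mau2 and Pds5b. Ordered from low to high, the members were Smc1a, Rad21, Nipbl, Mau2, Pds5a, Ctcf, Smc3, Stag1, Stag2 and Pds5b. The largest gap between neighbours was 0.61 between Pds5b and Stag2, and every other gap was 0.29 or less. Both standard deviations are those of single genes. Differences between a pair of genes spread more, so a gap above them need not be unusual.

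**Figure D1:**
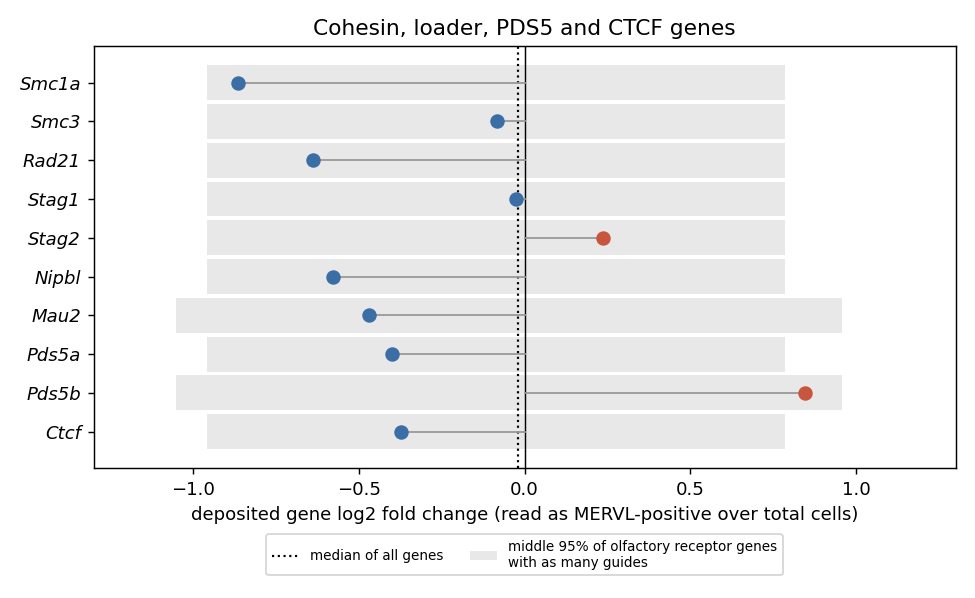
Deposited log2 fold change of each of the 10 genes (points), read as MERVL-positive over total cells, with the middle 95% of olfactory receptor genes that have as many guides (grey bars, 890 genes with 6 guides and 197 with 5) and the median of all genes (dotted line). There is 1 value per gene and no error bar, since no value per library was given. All 10 points lie within their grey bars, Pds5b is highest at 0.85, and 8 points lie below 0.

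The SMC subunits are the long ATPases that pair into the ring. Smc1a, on chromosome X from 152016428 to 152061973 in the RefSeq annotation of GRCm38.p6 (the coordinates of mm10), was the lowest of the 10 in the authors' deposited table, at -0.87 on the log2 scale and a ratio of 0.549. Only 5.11% of all genes had a lower value. With 3 of 6 guides down and 2 up, its depletion p was 0.109 (FDR 0.987) in MAGeCK, so it did not pass. For its partner Smc3, on chromosome 19 from 53600396 to 53645831, the authors' deposited table lists a log2 fold change of -0.084. Here 4 of 6 guides lay between the thresholds, 1 was up and 1 down. Its MAGeCK enrichment p of 0.0379 (FDR 0.985) had that 1 up guide behind it.

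Rad21, the kleisin that closes the ring, lies on chromosome 15 from 51962604 to 51993538. The authors' deposited table puts it at -0.64 on the log2 scale, a ratio of 0.642. Of 6 guides, 4 were down and the other 2 up, with none between the thresholds. Its p was under 0.05 in both directions, at 0.0105 for depletion (rank 236 of 22510 entries, FDR 0.886) and 0.029 for enrichment (rank 613, FDR 0.985). Such a pair of p-values was found for 11 of the 20380 genes, or 0.054%, Rad21 included. In 6 of these 11 every guide was past one threshold or the other.

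STAG1 and STAG2 bind the kleisin as alternatives to each other and contact CTCF. Stag1, on chromosome 9 from 100597709 to 100958544, had the best enrichment rank of the 10 in the authors' deposited table, 165, and a p of 0.00739 (FDR 0.934). Its guides were split, with 3 of 6 up and 3 down, and the gene value was -0.026 on the log2 scale. For Ints7, the gene of the study's title, the authors' deposited table gives an enrichment p of 0.00714 (FDR 0.931). Its log2 fold change was 0.14, with 3 of 6 guides up but 1 down. Stag2, on chromosome X from 42149297 to 42277186, stood at 0.24 on the log2 scale, with 3 guides up, 1 down and an enrichment p of 0.346 in MAGeCK. Stag1 minus Stag2 was -0.26, less than the standard deviation of receptor genes with 6 guides, and the difference was not tested.

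The loaders had values close to each other. Nipbl, whose product stimulates the cohesin ATPase, lies on chromosome 15 from 8289824 to 8465315. The authors' deposited table lists it at -0.58 on the log2 scale, and 3 of its 6 guides were down and 1 up. Mau2, which encodes the partner that stabilises NIPBL, lies on chromosome 8 from 70014527 to 70042734. Its entry in the authors' deposited table is -0.47 on the log2 scale, and 3 of its 5 guides were down and none up. Over both genes, 6 of 11 guides were down and 1 was up. The depletion p from MAGeCK was 0.384 for Nipbl and 0.324 for Mau2, so neither passed.

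The values of the PDS5 paralogues lay far apart. PDS5 proteins bind the kleisin and act with WAPL in removing cohesin from DNA. Pds5b, on chromosome 5 from 150673713 to 150810669, was the highest of the 10 in the authors' deposited table, at 0.85 on the log2 scale and a ratio of 1.80. Of all genes, 98.0% had a lower value. Of its 5 guides, 3 were up and the other 2 down, and its enrichment p of 0.0503 (FDR 0.985) in MAGeCK missed 0.05. Pds5a, on the same chromosome from 65605719 to 65698236, is listed in the authors' deposited table at -0.40 on the log2 scale, with 3 of 6 guides down, 2 up and a depletion p of 0.537. Pds5b minus Pds5a was 1.25, more than the standard deviation of single receptor genes with 5 or with 6 guides. Differences between a pair of genes spread more than single genes do, and this pair holds the highest member. No test of Pds5b against Pds5a could be made from 1 value per gene.

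For Ctcf, on chromosome 8 from 105636474 to 105682922, the authors' deposited table gives -0.37 on the log2 scale. Of its 6 guides, 4 were down and 1 up, with a depletion p of 0.244 and an enrichment p of 0.927 in MAGeCK (FDR 0.999 for both). An increase of Ctcf guides in MERVL-positive cells was thus not detected. With an average of about 23.0 sorted cells for 6 guides, and no count for Ctcf itself, this does not show that the knockout had no effect. Whether Ctcf knockout cells were lost, and whether equally in both groups, was not tested, since no value per library was given. Levels within a group, and any effect of such a loss on the scatter of guides, were not analysed here.

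**Figure D2:**
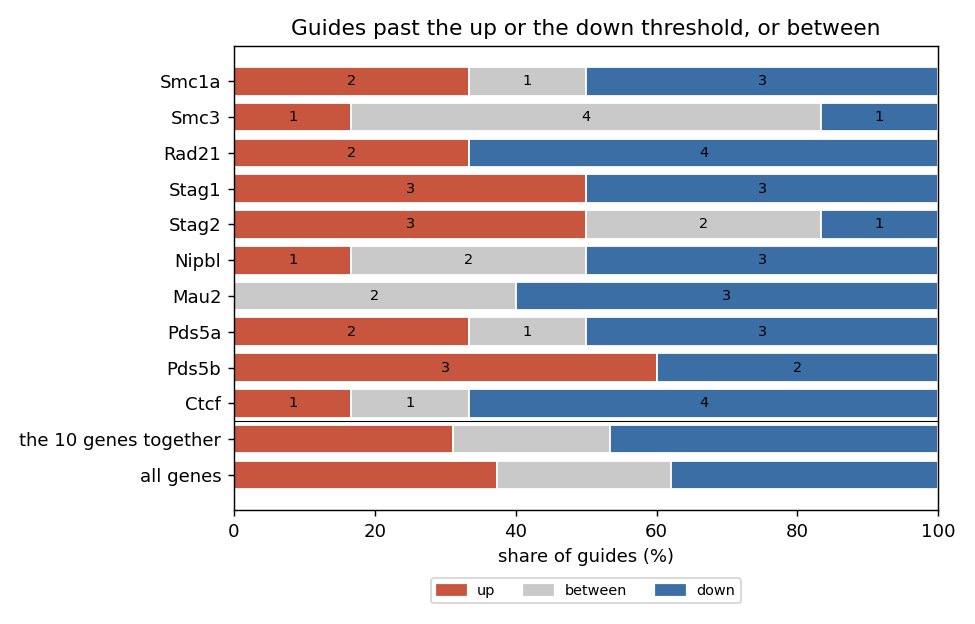
Share of each gene's guides counted as up (red), between the thresholds (grey) or down (blue) in the deposited table, with the number of guides in each segment. The 2 lowest bars pool the 58 guides of the 10 genes (31.0% up, 46.6% down) and the guides of all genes (37.4% up, 38.0% down). Every guide of Rad21, Stag1 and Pds5b is past one threshold, while 4 of 6 Smc3 guides lie between.

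In every member except Mau2, at least 1 guide was up and at least 1 down, as in 85.6% of all genes, so this is common at the loose threshold. Every guide lay past a threshold in 3 members (Rad21, Stag1 and Pds5b), as in 20.0% of all genes. The gene log2 fold change behaved as the median of the guides. It was above 0 in each of 918 genes with 5 guides of which 3 or more were up, and below 0 in each of 899 with 3 or more down. A p-value can then rest on a few guides while the log2 fold change follows the middle ones. Of the 1023 genes that the authors' deposited table gives an enrichment p under 0.05, 12.1% had a log2 fold change below 0, among them Stag1, Rad21 and Smc3. As a share of all genes this is 0.608%.

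**Figure D3:**
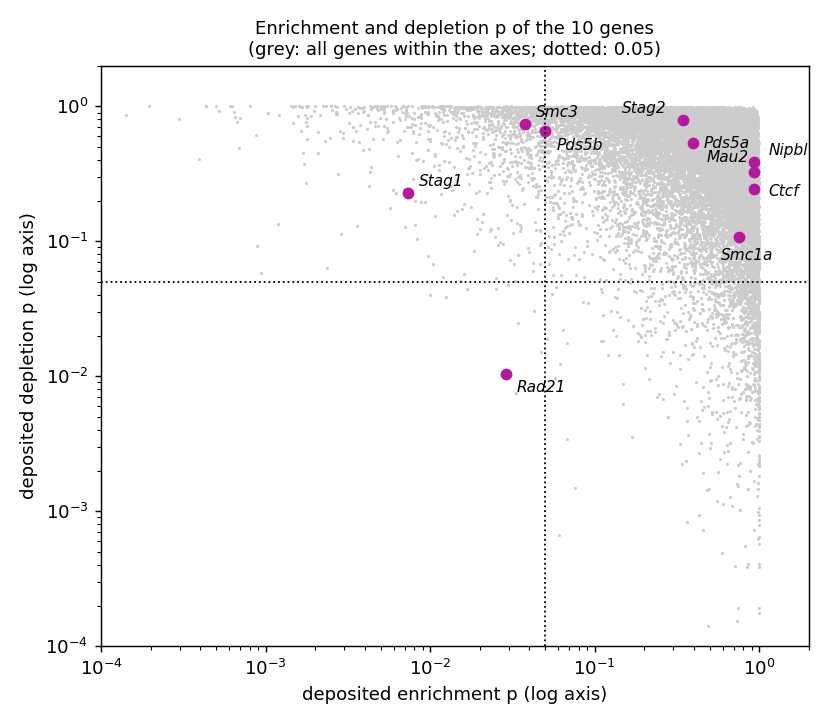
Deposited enrichment p against deposited depletion p on log axes for the 10 genes (labelled points) and all genes within the axes (grey), with dotted lines at 0.05. Rad21 lies below 0.05 on both axes, Stag1 and Smc3 on the enrichment axis alone, and the loaders and Ctcf lie near the right edge, with enrichment p-values of 0.926 to 0.927.

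The deposited scores allow the place of single guides to be recovered. In robust rank aggregation a gene's score is the smallest beta probability over its guides past the threshold, each ranked among all 121918 guides in the table. Inverting the score gives the place of the guide that set it, given here as a percentage of the ranking. The inversion was checked on the enrichment scores of 276 entries with at most 1 guide up and a precise enough score. All 276 fell on a whole or a midway place among the guides, within a tolerance of 0.002 places beyond rounding. Depletion scores, and entries with several guides up, were outside this check. Where several guides were past the threshold, a guide was named only if no other guide's place was possible.

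For the 3 members with an enrichment p under 0.05, the best guide alone set the score. The best Stag1 guide stood at 0.0242% of the ranking for enrichment, the best Rad21 guide at 0.117% and the best Smc3 guide at 0.16%. The best of 998 non-targeting guides stood at 0.141%, and 2 of these came before the Smc3 guide. Both had no target, and the authors' deposited table lists them at 2.86 and 3.29 on the log2 scale. Guides with no target thus reached places close to those of the Smc3 and Rad21 guides.

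Rad21 held an extreme guide at each end. Its lowest guide stood at 0.0349% of the ranking for depletion and set the depletion score, while the lowest non-targeting guide stood at 0.0504%. The lowest Smc1a guide also set its gene's depletion score, at 0.537%, with 12 of the 998 non-targeting guides at or before that place. Of 1017 genes with an enrichment p under 0.05 and at least 2 guides, the guide that set the score was unique in 695. In 183 of these 695 (26.3%) it was the best guide. For depletion it was unique in 646 of 1028 genes, and the best guide in 172 of these 646 (26.6%). In the remaining genes more than 1 guide could have set the score, so these shares do not cover them.

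The scores of Pds5b and Ctcf did not rest on the best guide. For Pds5b the best guide stood no earlier than 0.294% for enrichment, and the score was set by the second guide, at 3.98%, or the third, at 12.1%. For Ctcf the depletion score was set by the third or the fourth guide, at 19.9% or 33.1%, and the lowest guide stood no earlier than 1.70%. The single Ctcf guide counted as up stood at 35.1% for enrichment and that of Nipbl at 35.2%, both close to the threshold. The best Mau2 guide stood at 40.5%, beyond it. No guide against Ctcf, Nipbl or Mau2 therefore stood before 35.1% of the ranking for enrichment.

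**Figure D4:**
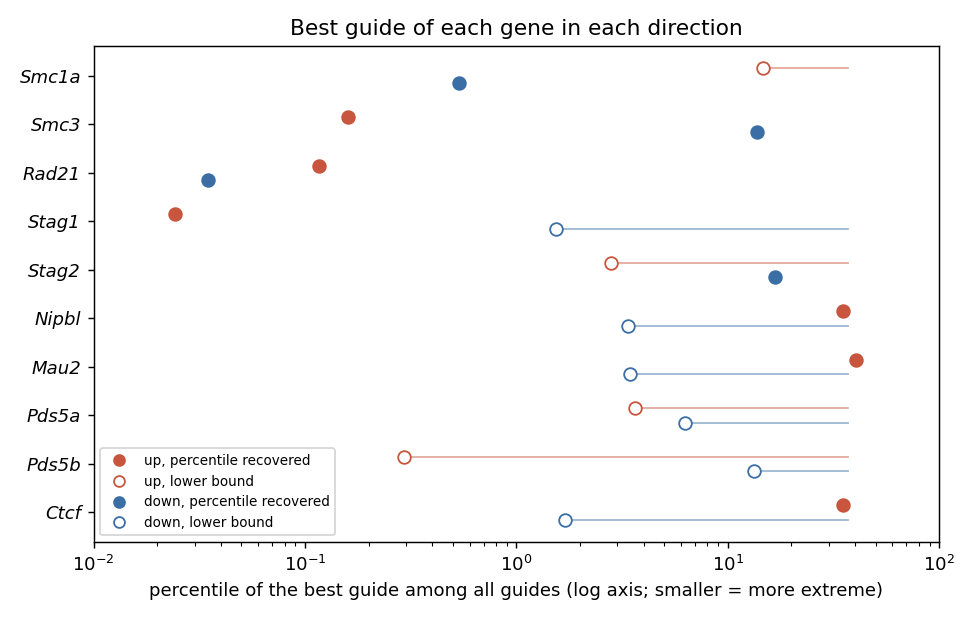
Place of the best guide of each gene in the ranking of all 121918 guides, as a percentile on a log axis where smaller is more extreme, for enrichment (red) and depletion (blue). Filled points are recovered places, and open points with a line to the threshold are lower bounds. Stag1 and Smc3 have 1 extreme guide for enrichment, Rad21 has 1 at each end, and the best enrichment guides of Nipbl, Mau2 and Ctcf lie at 35.2%, 40.5% and 35.1%.

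Genes around the cohesin cycle were taken from lists written with earlier results of the screen known, and all 32 were in the table, 2 of them found through synonyms. None of the 32 had a MAGeCK enrichment p under 0.05, against 5.02% of all genes, and 2 had a depletion p under 0.05, against 5.07% of all genes. For 7 genes of cohesin release and cohesion, the authors' deposited table gives a median of 0.11 on the log2 scale, and 5 of these lay above 0. Cdca5 (sororin, which protects cohesion) was highest at 0.36 with 4 of 6 guides up, and Sgol2, a shugoshin that protects centromeric cohesin in meiosis, was lowest at -1.54. Of the Sgol2 guides, 4 were down and the other 2 up, and its depletion p in MAGeCK was 0.037 (FDR 0.975).

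Of the 5 germline paralogues, the authors' deposited table lists Smc1b highest, at 0.22 on the log2 scale, and Stag3 lowest, at -1.16, with a median of -0.13. None of these 5 had a p under 0.05 in either direction. Stag3 is a germline subunit, and its value was lower than that of all 10 members, with 3 of 5 guides down and the other 2 up. The 6 other looping factors ran from -0.58 for Ldb1, a cofactor that joins enhancers and promoters, to 0.85 for Adnp, a zinc finger protein of the ChAHP complex. Their median was 0.048 in the authors' deposited table, and none of the 6 passed in either direction.

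Condensin is the SMC complex that compacts mitotic chromosomes, and its 8 genes had a median of 0.032 on the log2 scale in the authors' deposited table. Ncapd2, a regulatory subunit of condensin I, was lowest at -1.32, with 5 of 5 guides down, and MAGeCK gave it a depletion p of 0.00475, rank 123 and an FDR of 0.846. Ncaph, the kleisin of the same complex, was highest at 0.43, with 4 of 6 guides up and none down. The SMC5/6 complex acts in DNA repair, and its 6 genes had a median of -0.10 in the authors' deposited table. These ran from -0.80 for Smc6 to 0.41 for Nsmce2, a SUMO ligase, and none passed in either direction. The median of the 10 cohesin and CTCF genes lay below those of all 5 lists, a difference that was not tested. It depends on the measure and the members taken. By the mean, germline paralogues were lower, at -0.31 against -0.24 for the 10 genes, and each other list was higher. The 5 ring genes alone had a median of -0.084, within the range of the list medians.

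**Figure D5:**
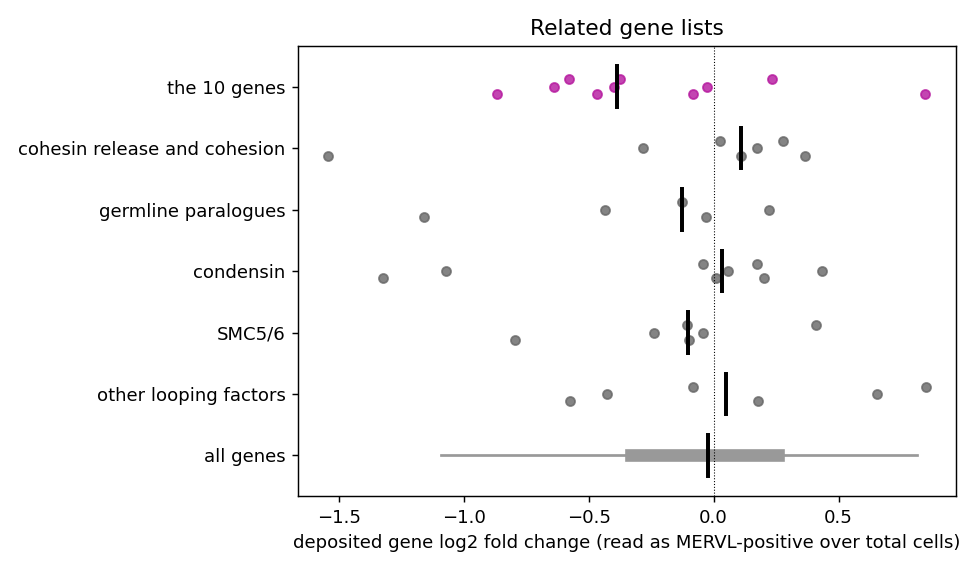
Deposited log2 fold change of each gene in the 10-gene set and in 5 related lists (points), with the median of each list (black bar). The lowest row gives all genes, with the median, the interquartile range (thick line) and the middle 95% (thin line). The median of the 10 genes is -0.39, and those of the 5 lists run from -0.13 to 0.11.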

How the data were processed

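Per the submitters' processing notes, MAGeCK and the mm10 build were used. For version, settings and normalization the sources used here give nothing. The authors deposited 1 table of 22510 entries (20380 genes, 1132 microRNAs and 998 non-targeting guides) in which, per the file headers, each has a count of guides and of guides past a threshold, a score, a p-value, an FDR and a log2 fold change. The score is taken as the robust rank aggregation score, which the headers do not state. Depth per library is unknown. No model could be fitted, so the authors' deposited p-values and FDRs were used unchanged and read against 0.05, and no list was tested. Exact intervals are Clopper-Pearson intervals (scipy 1.17.1). Scores were inverted with beta quantiles, an approach checked on simulated data and chosen after the values were seen. Gene positions came from RefSeq (GRCm38.p6), with 10 of 10 members matched by symbol. The members and lists were chosen with earlier results of these data known. The naming rule took all 10 members, the highest and lowest gene of each further list, any of its genes with a p under 0.05, and Ints7, Ints1 and the best-ranked genes for scale. Of the last 3, which no result turned on, Ints1 had a log2 fold change of 1.37, Proser2 one of 0.33 and Gm10413 one of -0.99 in the authors' deposited table. Alternatives were another p threshold, adjustment over genes alone, other centres, the mean, and members with 6 guides.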

Additional observations from a re-analysis of the deposited data

How the results depend on the processing

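No paired analysis was possible because the deposited columns carry no library or replicate. At a p under 0.01 in place of 0.05, 1 member (Stag1) in place of 3 remained for enrichment and 0 in place of 1 for depletion in the authors' deposited table, from MAGeCK. Counted only where the log2 fold change was also above 0, an alternative chosen after the values were seen, 0 members remained for enrichment. With 2 or more guides up required instead, also chosen after the values were seen, 2 remained, Stag1 and Rad21. The mean log2 fold change of the members was -0.24, against a median of -0.39. Centring on all genes or on non-targeting guides gave a median of -0.37 or -0.41. The medians subtracted were -0.021 and 0.019, smaller in size than the smallest member value, -0.026 for Stag1. The signs of all 20 re-centred member values were therefore bound to be kept. With p-values adjusted over genes alone, the lowest FDR was 0.93 for enrichment and 0.911 for depletion, and 0 members passed. Of 35 alternatives, 4 changed a count by over 1.5 times or the median by more than 0.14, and the sign of no value turned. The 0.14 is the standard deviation of the receptor genes with 6 guides over the square root of 10. The 20 re-centred values are among the 35 and were judged against 0.44, so none of them could count as changed. Sorted cells per guide and the lack of values per library limit what can be detected.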
